A study of Mus musculus with 10 samples.

Results

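The Rbm3 binding sites described here lie close to the 3' ends of genes and were seen in the PAR-CLIP library of Rbm3 but not in that of Cirbp, its close relative. A site was taken when it overlapped no Cirbp site on the same strand, lay in the locus of exactly 1 gene, and had its marked nucleotide less than 2000 nt from the 3' end and at least 1000 nt from the 5' end of that gene's most expressed transcript. Of 2118 Rbm3 sites, 350 met this rule, and they fall in 287 host genes. Of the other Rbm3 sites, 366 overlapped a Cirbp site, 320 sites without such an overlap lay in no listed gene locus, and 46 lay in loci of 2 or more genes. The overlap with Cirbp, the position and the mean expression that picked the transcript chose the sites, so these are given below as descriptions. Distances run along the genome between transcript ends, and which marks lie in an untranslated region, a coding exon or an intron was not analysed here.

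Mouse embryonic fibroblasts were used throughout. The 2 PAR-CLIP libraries came from fibroblasts with a stably expressed, FLAG-tagged copy of either Cirbp or Rbm3, grown at 37 °C with 100 µM 4-thiouridine for 16 h, with 1 library per protein. The 8 libraries of polyadenylated RNA came from fibroblasts not given thiouridine, in 4 groups of 2: mock transfection at 37 °C, mock transfection at 32 °C, siCirbp at 37 °C and siRbm3 at 37 °C. Both siRNA groups are set against mock transfection, since the labels name no control siRNA. Nothing in the labels says that the libraries of a group are separate cultures, so p-values measure the spread between these libraries, which may be technical. That spread is pooled over all 4 groups, also where only 2 are compared.

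Rbm3 and Cirbp are small glycine-rich proteins with a single RNA recognition motif, and both are known to rise in mild cold. In PAR-CLIP, thiouridine in the RNA is crosslinked to the bound protein by long-wave ultraviolet light, and base changes at the crosslinked thiouridine mark the contact. The 3' untranslated region of an mRNA, which many RNA-binding proteins contact, holds the elements that set polyadenylation, stability and translation, and a gene with several polyadenylation signals can make mRNAs of different 3' ends.

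The sites were short and of middling score. Their width ran from 20 to 83 nt with a median of 28, and the marked nucleotide lay a median of 13 nt from the 5' edge of the site. The deposited score can reach 1000, on a scale that the sources used here do not give. It ran from 1 to 928 with a median of 334 and quartiles of 233 and 426. Cirbp-only sites chosen by the same distances, 412 sites in 318 genes, had the same median score of 334 and a median width of 29 nt. The 79 sites near 3' ends where Rbm3 and Cirbp overlapped had a higher median score of 426. Of 16 Rbm3 sites that scored above the best site described here, 9 were shared with Cirbp. With 1 library per protein, no test of these differences is possible.

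Along the last 2000 nt the sites tended to grow more numerous with distance from the 3' end. In bins of 200 nt, counted away from the 3' end, the numbers were 24, 30, 36, 36, 35, 34, 38, 34, 41 and 42. The Cirbp-only sites were denser towards the 3' end, with 84 in the bin next to it and 51, 50, 54, 29, 27, 26, 34, 30 and 27 in those further upstream. The median distance was 1107.5 nt for the Rbm3-only sites and 682.5 nt for the Cirbp-only sites, and 54.0% of the former had their mark 1000 nt or more from the end. The 3 sites just inside the limit lay in Cpsf7 (1990 nt, score 426), Fam59a (1989 nt, score 201) and Hoxb3 (1989 nt, score 233). The 3 just outside lay in Hnrpdl (2004 nt, score 419), Rnd3 (2023 nt, score 101) and Vcan (2026 nt, score 233).

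**Figure D1:**
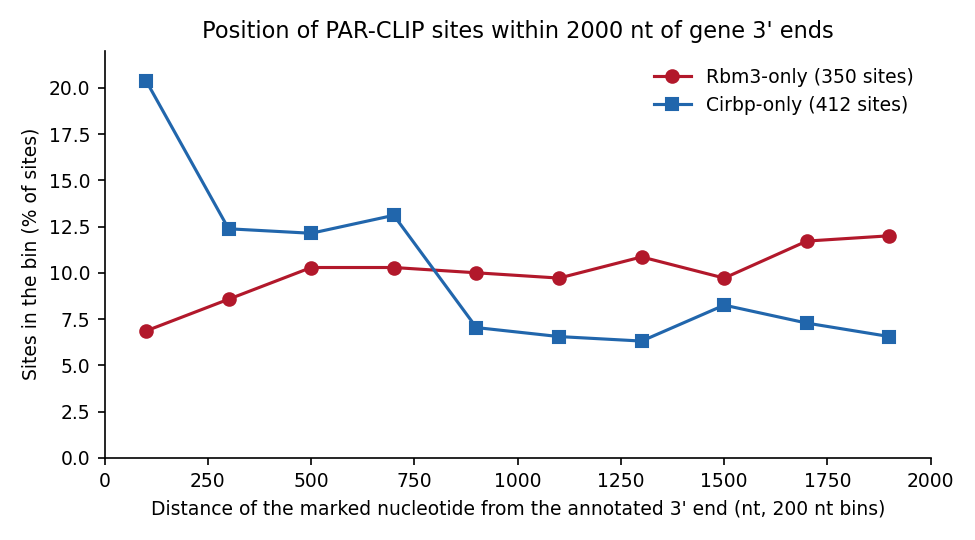
Share of sites (%) in each 200 nt bin of distance from the annotated 3' end, for 350 Rbm3-only sites (circles) and 412 Cirbp-only sites (squares) of 1 library each. The Cirbp-only line is highest in the bin next to the 3' end, with 84 sites, where the Rbm3-only line is lowest, with 24 sites.

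The strand of the RNA could be checked for 285 sites whose host transcript is in the RefSeq promoter table of GRCm38.p6. Of these, 284 lay on the strand of the gene. The exception was the site in Nr2f1, which encodes a nuclear receptor. It lay on the opposite strand, 760 nt from what is the annotated 5' end of that gene, so by the gene's own strand it is not a 3' site. The sites lay on 20 chromosomes, with 37 of them on chromosome 11.

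The 10 sites of highest score lay in 10 genes, given here on mm9 with counting from 1. The first was chr2:50987921-50987956 on the minus strand in Rnd3, an atypical small GTPase, with a score of 928 and its mark 1984 nt from the 3' end. The second was chr3:60432810-60432831 on the plus strand in Mbnl1, a splicing regulator, with a score of 900 at 844 nt. The third, chr1:129700039-129700097 on the plus strand, lay in Ccnt2, a cyclin of the elongation factor P-TEFb, and scored 804 at 1342 nt. The site chr14:35559044-35559070 on the plus strand in Wapal, a factor that releases cohesin from chromatin, scored 772 at 348 nt. The homeobox gene Hoxb9 held chr11:96136070-96136105 on the plus strand, with a score of 761 at 1816 nt.

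Klhl15, an adaptor of cullin ubiquitin ligases, held the site closest to its 3' end among these 10, at chrX:91518760-91518794 on the plus strand, with a score of 781 at 82 nt. The other 4 were chr10:92702307-92702333 (plus) in the kinase gene Cdk17, chr13:54687181-54687206 (minus) in the ribosome biogenesis gene Nop16, chr4:100113561-100113581 (plus) in the receptor gene Ror1 and chr3:143852052-143852107 (minus) in Lmo4, a LIM-only cofactor of transcription. Their scores were 740, 740, 735 and 706. Thus 6 of the 10 marks lay more than 1000 nt from the 3' end, beside Hoxb9 those of Rnd3, Ccnt2, Cdk17, Nop16 and Ror1.

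Most host genes held a single site. Of the 287 hosts, 239 held 1 site, 38 held 2 and 10 held 3 or more. In 63 pairs of neighbouring sites within a gene the marks lay a median of 227 nt apart, and 19 pairs were under 100 nt apart. The genes with most sites were Jun and Pura with 5 each and Atf4 with 4. Those with 3 sites included Hoxb9, Arid1a, Luc7l3, Lcor, Sf1 and Sfpq.

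Jun, a subunit of the AP-1 transcription factor, has a single-exon transcript of 3187 nt on the minus strand of chromosome 4, so its marks are positions in the mature RNA. They lay 567, 921, 1289, 1313 and 1908 nt from the 3' end, with scores of 472, 615, 541, 477 and 371, and all Rbm3 sites of the gene were among them. The strongest was chr4:94716639-94716667. Pura, which encodes a single-stranded nucleic acid-binding protein, held sites at 1126, 733, 616, 481 and 415 nt on chromosome 18, and their scores rose towards the 3' end, from 159, 159 and 301 to 392 and 580. Atf4, the transcription factor of the integrated stress response, held sites at 1142, 877, 703 and 254 nt on chromosome 15 with scores of 392, 487, 371 and 101. In Hoxb9 the 3 sites lay close together at 1864, 1816 and 1736 nt, with scores of 301, 761 and 360. Arid1a, the DNA-binding subunit of the BAF chromatin remodeller, held 10 Rbm3 sites in all, of which those at 990, 1489 and 1915 nt (scores 392, 371 and 640) belong here. None of these 5 genes held a Cirbp site, and neither did most hosts, 210 of 287.

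**Figure D2:**
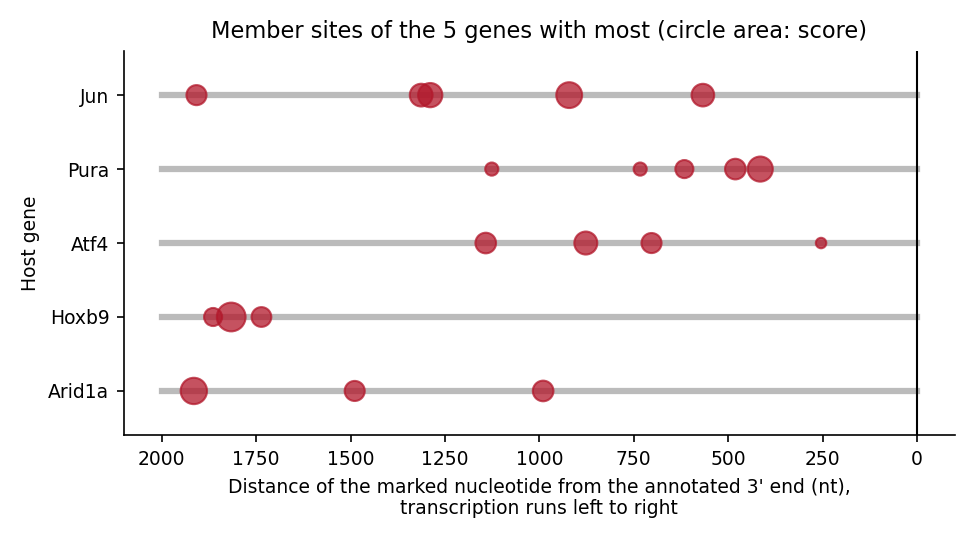
Rbm3-only sites in the last 2000 nt of the 5 host genes with most of them, by distance of the mark from the annotated 3' end (nt), with circle area in proportion to the score. The 5 sites of Jun run from 1908 to 567 nt, the 5 of Pura gather towards the 3' end, and the 3 of Hoxb9 lie between 1864 and 1736 nt.

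Cirbp sites were also found in some of the host genes. Of the 287, 77 (26.8%) held at least 1 elsewhere in the gene, beside 936 of 22552 listed genes (4.15%) and 7.89% of those with at least 1 FPKM. The other 210 held none, and 31 held a site shared by both proteins. For the 98 Rbm3-only sites with a Cirbp site in the same gene, the nearest one lay a median of 489.5 nt away, and for 32 it lay within 200 nt. The best site of Klhl15 lay 60 nt from a Cirbp site. Mbnl1 held 7 Cirbp sites, the nearest 288 nt from its Rbm3-only site. The hosts of Rbm3-only and of Cirbp-only sites near 3' ends shared 42 genes, 14.6% of the former and 13.2% of the latter. Among the 255 hosts with at least 1 FPKM the overlap was 15.3%, and 2.78% of all 10901 genes of that level were Cirbp-only hosts.

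Host genes without introns were found at 8.01%, or 23 of 287. Among all genes with a mean of at least 1 FPKM (fragments per kilobase of transcript, scaled to library size, averaged over the 8 RNA-seq libraries) the share was 4.04%, and 7.45% among the 255 hosts of that level. Over all 22552 listed genes it was 13.8%. Among the hosts of Cirbp-only sites near 3' ends it was 2.52%, or 8 of 318, and among the 576 hosts of Rbm3-only sites within gene bodies 0.868%. Among the 196 hosts of Rbm3-only sites near 5' ends it was highest, at 20.9%. The rule on distances shapes these shares, as a short locus leaves no room for sites of the gene body. No test was made, since sites of 1 library share their source.

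The score was only weakly related to the level of the host gene. Spearman's rank correlation between score and log2(mean FPKM + 1) was 0.05 over 350 sites, which share 1 library, and that between the number of sites and host level was 0.11 over 287 genes. The median host had 18.3 FPKM, and 26.1 FPKM for Cirbp-only hosts. The sites in hosts under 1 FPKM had a median score of 282, and those in hosts of 1 FPKM or more had 347.

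Hox genes, the homeobox factors that set position along the body axis, were among the hosts although they were nearly silent in the RNA-seq libraries. Of 39 Hox genes listed, 10 were hosts: Hoxa7, Hoxa10, Hoxb3, Hoxb9, Hoxc4, Hoxc8, Hoxc9, Hoxc10, Hoxd3 and Hoxd11. They held 12 sites with a median score of 330.5, close to that of all 350. In no RNA-seq library did any of these 10 genes exceed 0.0629 FPKM, and of the 39 Hox genes 21 were listed at 0 in all 8 libraries, the highest mean of any being 0.933 FPKM. Hoxd11, listed at 0 in every RNA-seq library, held a site of score 477, its mark 117 nt from the 3' end. The Rbm3 library held 19 sites in 11 Hox genes in all, and the Cirbp library 3 sites in 2. The family was looked at after its sites had been seen.

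A further 22 hosts had a mean under 1 FPKM, among them other developmental regulators such as Dlx5, Lhx4, Tlx1, Onecut1, Pou3f2, Bsx and Zic5, and also the receptor Ror1, whose site ranks among the top 10 while its level ran from 0.0427 to 0.286 FPKM. Together with the Hox genes these are 32 hosts (11.1%) with 35 sites. The share of hosts under 1 FPKM was 12.8% for all Rbm3 sites in 1 gene. It was 11.6% for Rbm3-only sites in gene bodies and 14.8% for those near 5' ends. For Cirbp-only sites near 3' ends it was 4.72%. Of all 22552 listed genes, 10901 reached 1 FPKM. Among the 32 hosts, 9 were listed at 0 in all 8 libraries. The tagged cells and the cells sequenced for RNA are different cultures, the RNA of the tagged cells was not analysed here, and a difference between the cultures and a low level of these RNAs cannot be told apart.

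**Figure D3:**
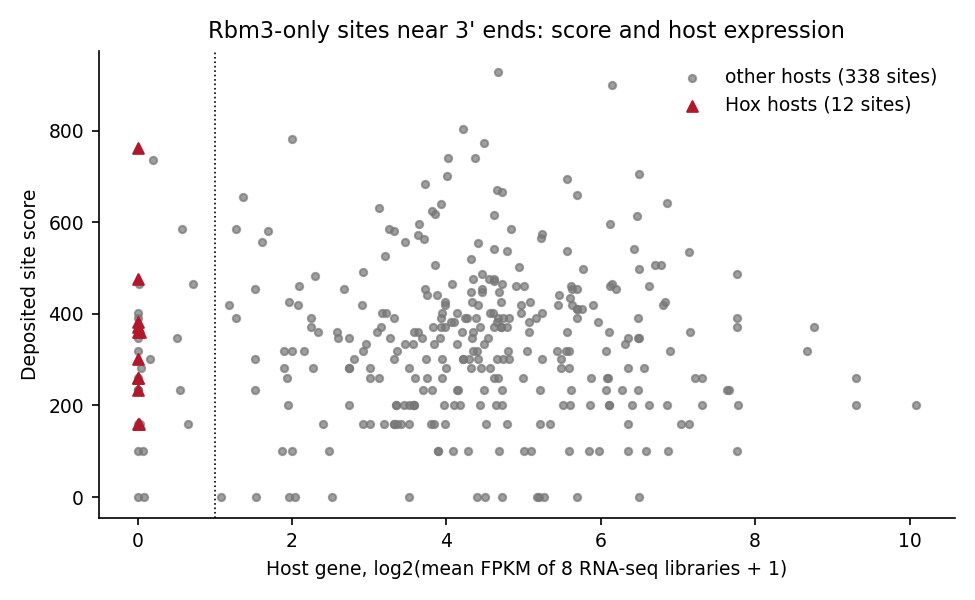
Deposited score of each of the 350 sites (vertical axis) against the log2(mean FPKM + 1) of its host gene over 8 RNA-seq libraries (horizontal axis), with Hox hosts as triangles and a dotted line at 1 FPKM. The 12 Hox sites sit at the left edge near 0 but span much of the score range, up to 761.

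The hosts were counted in lists of genes by function, beside a base of 1.27% of all 22552 listed genes and 2.34% of the 10901 with at least 1 FPKM that were hosts. Of 74 listed RNA-binding and splicing proteins, 11 were hosts with 14 sites, among them Celf1, Ddx3x, Khsrp, Mbnl1, Pcbp1, Sfpq, Son, Srsf2, Srsf10 and Zfp36l1. Of the same 74, 20 were hosts of Cirbp-only sites near 3' ends. The list of the ER, Golgi and secretory pathway had 6 hosts of 55 (Hspa5, Kdelr2, Rab1, Rab5c, Sar1a and Surf4), and cytoskeleton and adhesion had 4 of 56 (Arpc5, Pfn1, Tubb5 and Tubb6). Translation had 3 of 46 (Eif3a, Eif4a2 and Eif4g1), and pre-mRNA 3' end processing had 3 of 21 (Cpsf4 and Cpsf7, subunits of cleavage factors, and Pabpn1, the nuclear poly(A)-binding protein). Of 47 listed genes of collagens and extracellular matrix none was a host, and none was a host of Cirbp-only sites near 3' ends. Genes named Zfp, a prefix of zinc finger genes, held 21 sites in 17 of 366 genes, a count made after the hosts had been seen.

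RNA-seq depth ran from 24.8 to 27.8 M fragments per library. Of 15 fibroblast markers 12 had a mean of at least 1 FPKM, while Thy1, Lum and Fap did not. Of the markers of other cell types, 2 of 5 for macrophages, 1 of 5 for epithelium, 0 of 4 for endothelium and 2 of 4 each for muscle, adipocytes and neural cells reached that level. The macrophage markers Ptprc, Csf1r and Emr1, the epithelial markers Epcam, Cdh1, Krt8 and Krt18, the muscle markers Myod1 and Myog, the adipocyte markers Adipoq and Plin1 and the neural markers Tubb3 and Gfap did not. Over the 8 libraries the summed level ran from 13.1 to 35.9 FPKM for macrophages, 0.0947 to 7.68 for epithelium, 37.8 to 67.4 for muscle, 11.2 to 33.3 for adipocytes and 17.5 to 77.0 for neural markers. From 37 °C to 32 °C the mean sum went from 52.1 to 17.9 FPKM for neural and from 19.1 to 33.2 for macrophage markers, and their part in the results below was not tested. Cirbp had 15.9 and 17.1 FPKM in mock cells at 37 °C, 34.5 and 37.2 at 32 °C, and 10.8 and 6.07 in the siCirbp libraries. Its lower level after siCirbp was not called (log2 change -0.94, SE 0.30, limma adjusted p = 0.116). Rbm3 had 1.85 and 2.21 FPKM in mock cells at 37 °C and 3.64 and 3.20 at 32 °C. This rise was not called (log2 change 0.55, SE 0.30, limma adjusted p = 0.191). The rise of Cirbp at 32 °C was called (log2 change 1.07, SE 0.30, limma adjusted p = 0.0313). In the siCirbp libraries Rbm3 had 5.54 and 7.55 FPKM, the highest of the 8, though not called (log2 change 1.31, SE 0.30, limma adjusted p = 0.0588). The libraries that carry the label siRbm3 had 3.05 and 1.16 FPKM of it (log2 change -0.03, SE 0.30, limma adjusted p = 0.971). Replicate 1 of these thus had more Rbm3 RNA than either mock library at 37 °C, against its label, and every direction given for siRbm3 below concerns libraries so labelled. Cirbp had 13.8 and 23.8 FPKM in the same libraries (log2 change 0.13, SE 0.30, limma adjusted p = 0.845). In replicate 2 it was thus above both mock libraries of 37 °C, and its part in the comparisons with siRbm3 was not tested. Replicates of mock cells differed by a median of 0.088 (37 °C) and 0.11 (32 °C) on the log2 scale regardless of sign, those of siCirbp by 0.26 and those labelled siRbm3 by 0.31. As the fit pools the spread, that of the siRNA libraries enters the p-values of 32 °C against 37 °C. The closer mock libraries likewise enter those of siCirbp and siRbm3.

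The comparison of 32 °C with 37 °C asks what mild cold does to the RNA of the bound genes. Jun, with most sites, fell, as did Arid1a, Aurka and Tubb5, while Atf4 and the ER chaperone Hspa5 rose. Of the 255 host genes that had a mean of at least 1 FPKM and were tested, 21 rose and 63 fell (limma, adjusted p under 0.05 over all genes). These 84 are 32.9% of the hosts, beside a background of 32.8% of 10901 genes, so the share of hosts called is near the background. In direction, 8.24% of the hosts rose and 24.7% fell, beside 13.0% and 19.8% of all genes. The median log2 change was -0.14 for hosts and -0.02 for all genes. When the libraries were centred on their medians, 33 hosts rose and 51 fell, beside 2110 and 1721 of all genes, and the medians moved to -0.01 for hosts and 0.11 for all genes. With either mock library of 32 °C or 37 °C left out the count fell to between 10 and 23 hosts.

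Jun had 37.2 and 41.7 FPKM at 37 °C and 6.63 and 6.24 FPKM at 32 °C. The cold libraries were both far below the mock libraries, a log2 change of -2.44 (SE 0.18, limma adjusted p = 0.00103), which was the largest fall among hosts with at least 5 FPKM. Atf4 had 155 and 160 FPKM at 37 °C and 358 in each library at 32 °C, the largest rise at 1.18 (SE 0.22, limma adjusted p = 0.00913). Arid1a had 15.7 and 16.9 FPKM at 37 °C and 6.08 and 5.28 at 32 °C, a change of -1.37 (SE 0.20, limma adjusted p = 0.00459). Pura had 10.1 and 11.6 FPKM against 7.28 and 5.94, which do not overlap but missed the threshold (log2 change -0.64, SE 0.25, limma adjusted p = 0.0839). Among the 5 genes with most sites, then, 1 rose, 2 fell, 1 was not called and Hoxb9 was too low to test. Of the 10 hosts of the highest-scoring sites, Hoxb9 and Ror1 were too low to test, Nop16 rose, from 10.1 and 10.4 FPKM to 18.0 and 19.2 (log2 change 0.80, SE 0.22, limma adjusted p = 0.0309), and the other 7 were not called.

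Among the other large rises was Hspa5, the main chaperone of the ER lumen, which had 304 and 305 FPKM at 37 °C and 604 and 649 at 32 °C (log2 change 1.04, SE 0.14, limma adjusted p = 0.00360). The largest other rises were those of AW209491 (1.18), Pdcl, a phosducin-like protein (1.13), Mat2a, which makes S-adenosylmethionine (0.99), Abcf2 (0.97), Zfp207, a spindle assembly factor (0.97), and Ssu72, a phosphatase of RNA polymerase II (0.91). Their limma adjusted p ran from 0.00318 for AW209491 to 0.0343 for Ssu72, and in none did the 2 mock groups overlap. The site of Ssu72 has the lowest possible score, 1.

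Falls were larger than rises. Zfp703, a zinc finger protein, had 28.6 and 33.1 FPKM at 37 °C against 6.89 and 7.29 at 32 °C (log2 change -1.97, SE 0.20, limma adjusted p = 0.00202). Aurka, a kinase of the mitotic spindle with 2 sites, had 19.6 and 19.1 FPKM against 3.80 and 5.21 (log2 change -1.90, SE 0.18, limma adjusted p = 0.00191). Tubb5, a beta-tubulin with 2 sites, had 619 and 673 FPKM against 203 and 223 (log2 change -1.59, SE 0.25, limma adjusted p = 0.00542). Dag1, the dystroglycan of the cell surface (-1.67), Hey1, a target of Notch signalling (-1.63), Prrc2a (-1.50) and Kdm6b, a histone demethylase (-1.45), complete the largest falls, with limma adjusted p from 0.00237 to 0.00913.

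**Figure D4:**
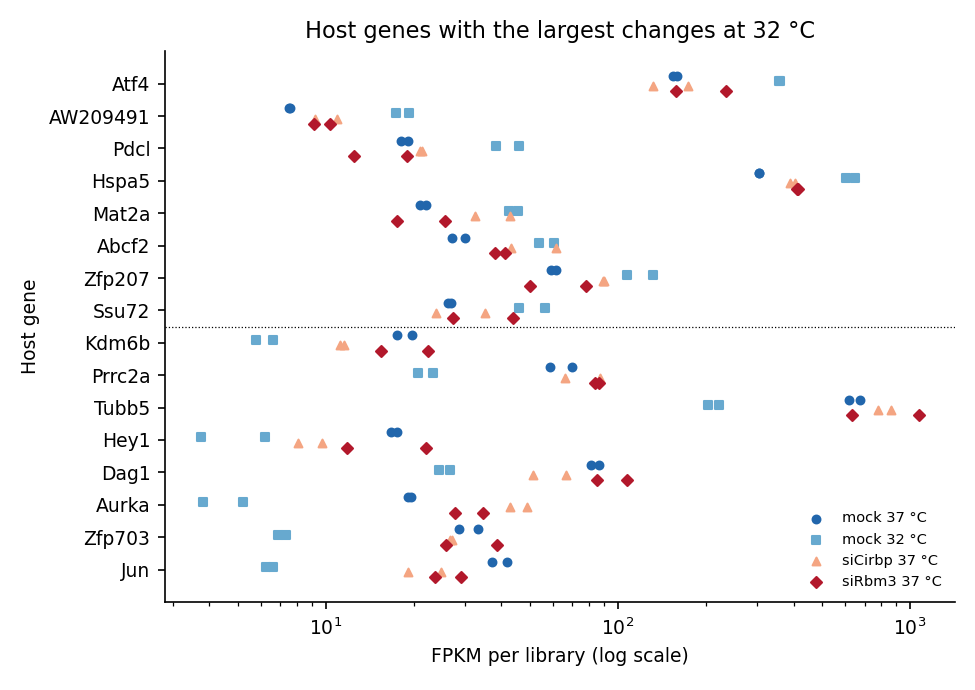
FPKM in each of the 8 RNA-seq libraries (log scale) for the 8 hosts with the largest rises (above the dotted line) and the 8 with the largest falls at 32 °C, with a symbol per group. In each gene the squares of 32 °C lie apart from the circles of 37 °C.

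Among hosts that act on chromatin, some are named here after their values were seen, so they stand as single genes and say nothing of chromatin regulators as a group. Kdm5c, a histone demethylase, had 41.6 and 42.7 FPKM against 15.4 and 14.8 (log2 change -1.42, SE 0.15, limma adjusted p = 0.00235). The acetyltransferase Ep300 had 25.2 and 25.1 FPKM against 13.2 and 11.9 (log2 change -0.95, SE 0.16, limma adjusted p = 0.00609), and Mta1, a subunit of the NuRD complex, had 26.9 and 29.7 against 11.4 and 10.8. Crebbp, Mll2, Mll5, Ing1, Phf12, Cbx8, Vps72, Arid1a and Kdm6b fell as well, Prmt6 rose (0.48, SE 0.15, limma adjusted p = 0.0485), and Sin3a and Pcgf3 were not called.

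Several hosts related to Atf4 or to Hspa5 were likewise named after their values were seen. Atf5, a factor related to Atf4 with 2 sites, had 28.7 and 37.1 FPKM against 39.3 and 40.7 and was not called. Trib3, a pseudokinase induced by Atf4, also with 2 sites, had 24.9 and 27.5 FPKM against 52.6 and 46.3 and missed the threshold (log2 change 0.89, SE 0.34, limma adjusted p = 0.0820). Xbp1, Dnajb9, Edem3 and Atf3 had log2 changes between -0.16 and 0.23 and were not called. Of these 6 genes and Atf4 none held a Cirbp site, while Hspa5 held 1. Most hosts, 210 of 287, held none.

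Of the 11 RNA-binding hosts, 3 fell at 32 °C and none rose, while in their whole list 4 rose and 15 fell of 73 tested (median log2 change 0.03). Khsrp, a decay factor that binds AU-rich elements, had 21.9 and 25.0 FPKM against 9.14 and 7.86 (log2 change -1.36, SE 0.14, limma adjusted p = 0.00221). Pcbp1, a poly(C)-binding protein, changed by -0.83 (SE 0.17, limma adjusted p = 0.0112) and Zfp36l1, another AU-rich element factor, by -1.03 (SE 0.29, limma adjusted p = 0.0313). Mbnl1, with the second-highest score, had 62.1 and 61.6 FPKM against 117 and 108 and just missed the threshold (log2 change 0.86, SE 0.29, limma adjusted p = 0.0553). Among the factors of 3' end processing Cpsf7 fell (-0.45, SE 0.13, limma adjusted p = 0.0353), Pabpn1 did not pass (-0.45, limma adjusted p = 0.0553) and nor did Cpsf4 (0.28, limma adjusted p = 0.220). In the list as a whole 3 of 20 tested fell and none rose (median 0.11).

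In the ER list the hosts Hspa5 and Sar1a, a GTPase of transport vesicles (log2 change 0.66, SE 0.15, limma adjusted p = 0.0168), rose and the other 4 were not called, while 14 of the 55 tested rose and 4 fell (median 0.34). Of the 4 cytoskeletal hosts Tubb5 and the actin-binding protein Pfn1 (-0.71, SE 0.20, limma adjusted p = 0.0323) fell, and 3 of 53 tested rose and 22 fell in that list (median -0.41). None of the 3 translation hosts was called, and 7 of 45 tested rose and 5 fell in their list (median 0.04). In the remaining lists the host counts were at most 2, and of these hosts Aurka, Vegfa, the angiogenic growth factor (-0.82, SE 0.26, limma adjusted p = 0.0489), and Calm3, a calmodulin gene (-0.62, SE 0.19, limma adjusted p = 0.0417), fell. Of the genes tested, 7 rose and 6 fell of 33 for proteostasis (median log2 change 0.16), 4 and 16 of 34 for the cell cycle (-0.76), 0 and 21 of 37 for metabolism (-0.82), 3 and 17 of 52 for signalling (-0.31) and 2 and 6 of 18 clock genes (-0.43). The matrix list, which has no host, had 3 that rose and 19 that fell of 40 (-0.66).

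Splitting the hosts by Cirbp gave 16 called of 72 with a Cirbp site (22.2%) and 68 of 183 without (37.2%), beside the 32.8% of all genes. The difference was not tested. Hosts with 2 or more sites had 17 called of 46 (37.0%) and those with 1 site 67 of 209 (32.1%). Of the hosts of Cirbp-only sites near 3' ends 30.0% were called, 30 up and 61 down, and of those of Rbm3-only sites in gene bodies 33.8%, 22 up and 150 down. The host sets share genes and libraries, and no test between them was made.

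**Figure D5:**
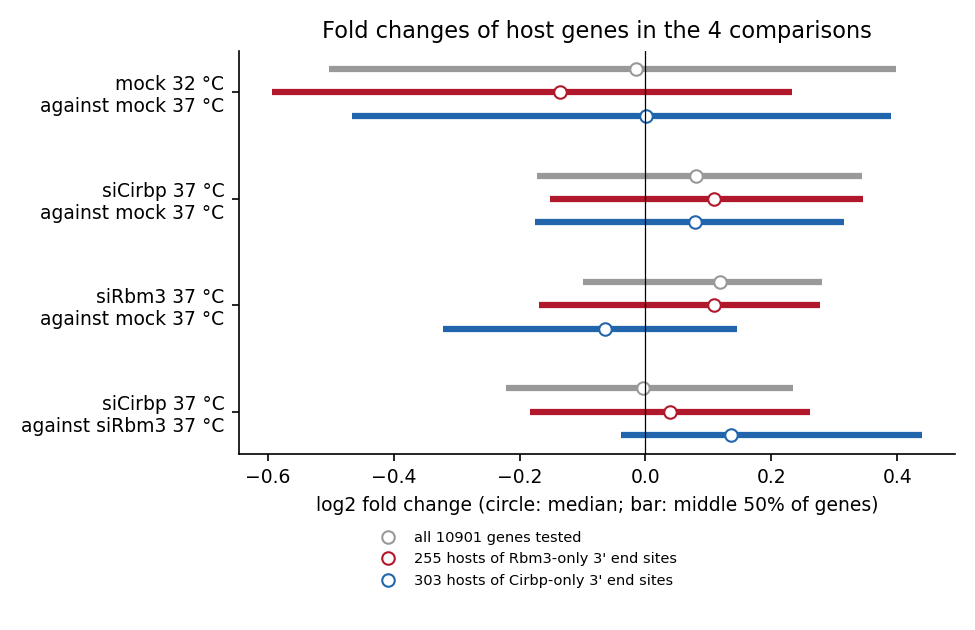
Median (circle) and middle 50% (bar) of log2 fold changes in the 4 comparisons for 10901 genes tested, the 255 hosts of Rbm3-only sites near 3' ends and the 303 hosts of Cirbp-only sites near 3' ends. The hosts of Rbm3-only sites have a median of -0.14 at 32 °C, below that of all genes (-0.02), and lie within 0.05 of it in the other comparisons.

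After siCirbp few hosts changed. Of 255 tested, 3 rose and none fell (1.18%), beside a background of 3.39% of all genes called, 2.77% higher and 0.624% lower. Fen1, the flap endonuclease of DNA replication, had 9.01 and 11.6 FPKM in mock cells and 31.7 and 47.4 after siCirbp (log2 change 1.83, SE 0.27, limma adjusted p = 0.0266). Aurka had 42.9 and 49.0 FPKM against 19.6 and 19.1 (log2 change 1.20, SE 0.18, limma adjusted p = 0.0266). Cdkn2c, an inhibitor of the kinases CDK4 and CDK6, had 30.5 and 25.3 FPKM against 14.3 and 13.7 (log2 change 0.94, SE 0.15, limma adjusted p = 0.0284). Aurka is the only host in the cell cycle list, where 16 of 34 genes rose and 1 fell. Fen1 and Cdkn2c are not in that list, so the 3 hosts stand as single genes. None of the 3 holds a Cirbp site, and neither do 210 of all 287 hosts.

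These calls did not hold in every setting: with only the 2 groups compared none of the 3 passed, and leaving out single libraries gave between 0 and 31 hosts. Jun came nearest to the threshold among those lower, with 19.2 and 24.8 FPKM after siCirbp (log2 change -0.82, SE 0.18, limma adjusted p = 0.0523). The other hosts with the smallest p were, higher, 4632434I11Rik (1.14, limma adjusted p = 0.0505) and Abcf2 (0.83, limma adjusted p = 0.0600), and, lower, Zfp36l1 (-1.08), Srgap3 (-0.54), Kdm6b (-0.67) and Amotl2 (-0.88), with limma adjusted p between 0.0804 and 0.101. The median of all hosts was 0.11, and 0.08 for all genes. Rbm3 RNA itself was higher in the siCirbp libraries, as given above, and its part in the comparisons with siCirbp was not tested.

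In the libraries labelled siRbm3 no host changed by limma at adjusted p under 0.05, and none of the 10901 genes did, so percent called was 0.0 for both. At an unadjusted p under 0.05 the counts were 31 hosts of 255 and 13.3% of all genes. The hosts with the smallest p were, higher, Atf5 (0.90), Cdkn2c (0.60), Aurka (0.66), Jagn1 (0.47) and Hspa5 (0.43), and, lower, Zfp36l1 (-1.04), Zfp62 (-0.996), Jun (-0.57), Arl6ip6 (-0.50) and Hiatl1 (-0.76). All had a limma adjusted p of 0.350. Atf5 had 56.0 and 67.9 FPKM in these libraries, both above the mock values of 28.7 and 37.1, and Jun had 23.6 and 29.0, both below the mock values of 37.2 and 41.7. The median log2 change was 0.11 for the hosts and 0.12 for all genes.

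The 2 libraries labelled siRbm3 disagreed over many hosts, of which 4 are given here that were chosen after their values were seen. Ddx3x, an RNA helicase, had 70.4 FPKM in replicate 1 and 17.5 in replicate 2, beside 59.8 and 62.3 in mock cells. Luc7l3, a splicing factor with 3 sites, had 50.5 and 15.9 beside 58.0 and 47.0. Wapal, with the fifth-highest score, had 23.2 and 8.20 beside 23.9 and 22.2, and Mbnl1 had 55.4 and 27.4 beside 62.1 and 61.6. In each of these replicate 2 lies far below the mock cells and replicate 1 close to them.

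When replicate 1 was left out, which then compares a single siRbm3 library and assumes that it varies like the other groups, 29 hosts passed limma's adjusted p under 0.05. Of these 26 were lower and 3 higher (Trib3, Xbp1 and Zfp777), beside 818 lower and 133 higher genes, or 8.72%, of all tested. The smallest p were those of Gpbp1 (-1.48), Zfp62 (-1.52), Sp3 (-1.42), Nipbl, the cohesin loader (-1.80), and Luc7l3 (-1.65). Mbnl1, Wapal, Ccnt2, Rnd3 and Pura were lower as well. The 26 lower hosts had a median transcript length of 4331.5 nt, beside 2827 nt for all 255 hosts, and the part of transcript length or RNA quality in this result was not tested. Of the 255 hosts 35.7% were below both mock libraries in replicate 2, beside 29.1% of all genes, and 59.2% were above both, beside 63.3%. Without replicate 2 instead, 1 host passed.

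Between siCirbp and siRbm3 no host was called, beside 4 of all genes (0.0367%), 0.0183% higher and 0.0183% lower. At an unadjusted p under 0.05 the counts were 35 hosts and 15.2% of all genes. The smallest p were those of Arl6ip6 (0.84), 4632434I11Rik (1.25), Hiatl1 (1.07), Fen1 (1.13) and Mat2a (0.79), higher after siCirbp, and of Dag1 (-0.70), Kdm6b (-0.66), Trib3 (-1.13), Rundc1 (-0.41) and Slc6a9 (-0.69), with limma adjusted p between 0.221 and 0.278. Without replicate 1 of siRbm3, 57 hosts passed, 40 higher and 17 lower after siCirbp, beside 19.6% of all genes. The siCirbp and siRbm3 comparisons with mock cells share the same mock libraries, so their values are given side by side only.

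The study names alternative polyadenylation as its subject, and 13 of the 350 sites lie in 12 genes with 2 listed 3' ends. In 7 of these genes, with 8 sites, the site lies downstream of the proximal end, so that a transcript with that end would lack it: Klhl15, Nipbl, Son, Wtap, Pdlim7, Cnot2 and Trmt2b. The scores of these sites run from 1, the lowest possible, in Trmt2b to 781 in Klhl15, whose second site scores 101. The share of FPKM from the transcript with the distal end could be tested in 10 of the 12, the exceptions being Cnot2, with a distal share above 98%, and Klhl15, which is expressed too low.

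In no comparison was a host called for its distal share. The background was 3.88% of 309 genes at 32 °C (0.971% higher and 2.91% lower), 1.62% after siCirbp (0.971% higher and 0.647% lower) and 0.0 in both comparisons with siRbm3 (limma, adjusted p under 0.05 over 309 genes). Unadjusted, 25.9%, 16.5%, 5.83% and 15.5% of the 309 genes had p under 0.05. Cnot6l, a deadenylase of the CCR4-NOT complex, had distal shares of 82.8% and 80.6% in mock cells, 81.8% and 85.4% at 32 °C, and 91.3% and 91.8% after siCirbp. It had 79.6% and 83.9% in the siRbm3-labelled libraries. The siCirbp libraries were the highest of the 8, by 0.94 over mock on the log2 ratio of distal to other FPKM (SE 0.20), yet with limma adjusted p = 0.0759 they missed the threshold. Its 2 listed ends lie 1059 nt apart and its site, with a score of 487, lies 1638 nt from the distal end, upstream of both.

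Atp2a2, the calcium pump of the ER, had distal shares of 11.0% and 11.4% at 37 °C and 19.7% and 19.5% at 32 °C. The cold libraries were both above the 6 others, whose shares reached at most 13.8%, but the log2 ratio of 0.91 (SE 0.29) had a limma adjusted p of 0.128. The site of Atp2a2 lies 3653 nt from the distal end, upstream of both ends. Nipbl, whose site scored 671 and lies 103 nt from the distal end, had 76.8% and 74.2% at 37 °C and 68.7% and 65.0% at 32 °C (log2 ratio -0.58, SE 0.24, limma adjusted p = 0.190). Son, a splicing cofactor, had 74.8% and 71.7% in mock cells and 82.1% and 79.4% after siCirbp (log2 ratio 0.57, SE 0.20, limma adjusted p = 0.216). The 3' ends here are those of listed transcripts only, and FPKM splits reads between transcripts by the authors' estimate. For Atp2a2 and Nipbl the strand, which sets the end called distal, was taken from their PAR-CLIP sites.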

How the data were processed

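The PAR-CLIP site lists were deposited by the authors with a score per site, on mm9 per the file headers, and the site caller is not given in the sources used here. RNA-seq reads of 76 nt were aligned with TopHat 1.1.2, per the submitters' processing notes. The deposited FPKM, with a coverage column and a length column per the file headers, list 28702 transcripts. The deposited coverage signal is the mean depth per base, and divided by FPKM it gave each library's fragments. Overlaps, distances and strands were computed with pandas 2.3.3.

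FPKM were summed per gene. Limma 3.58.1 in R 4.3.3 (trend, robust) was fitted on log2(FPKM + 1) of genes with a mean of at least 1 FPKM, with 4 group means over 8 libraries. It gave two-sided p-values adjusted by Benjamini-Hochberg over all genes, called below 0.05. Fold changes on this scale are understated for low genes. Distal 3' ends were tested on log2((distal + 1)/(other + 1)) for genes of at least 5 FPKM with a distal share of 10% to 90%. The fit was tested on simulated data.

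Named are hosts of the 10 best sites and of the 5 genes with most sites, the 3 sites on each side of the 2000 nt limit, the 8 largest rises and falls of at least 5 FPKM or, with under 5 calls, the 5 smallest p per direction, up to 4 hosts per list, and Cirbp and Rbm3; others are said to be chosen after their values were seen or complete a count. Members and lists were chosen with earlier results of these data known. The lists were collagens and extracellular matrix, cytoskeleton, translation, RNA-binding, 3' end processing, ER, proteostasis, cell cycle, metabolism, signalling and clock genes. Alternatives were scaling, filter, pseudocount, transcript choice, length, block, groups fitted and single libraries left out. Values of a few host genes are not reported here.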

Additional observations from a re-analysis of the deposited data

How the results depend on the processing

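At 32 °C the 84 called hosts became 168 with only the 2 groups compared, where 69.3% of all genes were called, and ranged from 10 to 124 with single libraries left out. Leaving out a library of mock 37 °C or mock 32 °C gave 20, 10, 23 and 10, which leaves the group 1 library assumed to vary like the others. Of the 84 hosts called at 32 °C, 10 to 23 were also called without such a library and 67 to 84 in the other settings. The 3 hosts after siCirbp became 0 with no filter, 7 with quantile normalization, 1 after removal of the trend with length, 0 with only the 2 groups compared, and 0 to 31 with libraries left out. For siRbm3, hosts ranged from 0 to 29 and for siCirbp against siRbm3 from 0 to 57 with libraries left out, the highest without siRbm3 replicate 1. Lmo4, not called at 32 °C (0.13), turned to -0.0319 under quantile normalization and to -0.0606 once the length trend was taken out. Why these values moved was not tested.

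Same-numbered libraries had residual correlations from -0.15 to 0.091, so they share only a number. With a replicate block the called hosts were 80 at 32 °C, 0 after siCirbp and 0 in both comparisons with siRbm3. No host passed for the distal 3' end in any setting. The 350 sites in 287 hosts became 180 in 155 with a score above the median of all Rbm3 sites and 161 in 139 under 1000 nt from the 3' end. The depth behind a site's score is unknown. Counting marks up to 2000 nt beyond the end (352 sites) and leaving out hosts under 1 FPKM (315) were added after seeing the data.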
